A study of Homo sapiens with 2 samples.

Results

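The genes described here are 10 genes that build, accompany or signal for immunoglobulin, out of the 18930 genes listed in the deposited expression table. They are JCHAIN, MZB1, IGLL5, IGLL1, VPREB3, CD79A, CD79B, SYK, BTK and BLNK. They were taken by symbol, JCHAIN also by its gene identifier. The group was chosen by the high levels of JCHAIN and IGLL5 (in CPM, reads scaled to library size) in an earlier look at these libraries, so the values are given as a description. The study sequenced RNA from melanoma cells to ask what distinguishes dacarbazine-resistant (DR) cells from wild-type (WT) cells. There was 1 library labelled DR and 1 labelled WT, and both carry the label A375, a human melanoma cell line. The labels give DMEM with serum as its medium, whereas the paper gives RPMI for its tumor cells. Dacarbazine (DTIC, spelled DITC in the labels) is a drug that alkylates DNA. The labels give 105 days of it for both libraries, the WT-labelled library included, whereas the paper describes WT cells as the wild-type control. Neither source says how many clones or cultures stood behind a library. The count columns were matched to the samples by descriptions that differ only in a punctuation mark, and every direction between the libraries rests on that match.

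The labelled cell type was first compared with marker genes, and the data went against it. None of 6 melanocytic markers with counts exceeded the median level of all genes tested (14.4 TPM in the DR-labelled library and 14.5 in the WT-labelled library, where TPM are the reads divided by gene length and scaled to the library). SOX10, the transcription factor that maintains the melanocyte lineage, had 3 and 0 reads, the latter allowing up to 0.0861 CPM. TYRP1, a melanosome enzyme, had 0 and 17 reads, and DCT had 13 and 9. The other melanocytic markers were detected. MITF had 34.6 and 34.7 CPM, PMEL 4.46 and 2.35 CPM, and MLANA 2.21 and 2.55 CPM. All 8 plasma cell markers lay above that median in both libraries, with summed levels of 2726 and 3115 CPM. Among them, SDC1, the surface proteoglycan by which plasma cells are usually recognised, had 369 and 565 CPM. TNFRSF17 had 58.1 and 64.5 CPM, and POU2AF1 had 479 and 430 CPM. The libraries are therefore called by their labels only. They held 54878310 and 35294629 reads, so the WT-labelled library had the wider counting error. With 1 library in each group no test between the conditions was possible, and the intervals given are 95% intervals for read counting alone, in reads that carry no molecular identifiers.

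**Figure D1:**
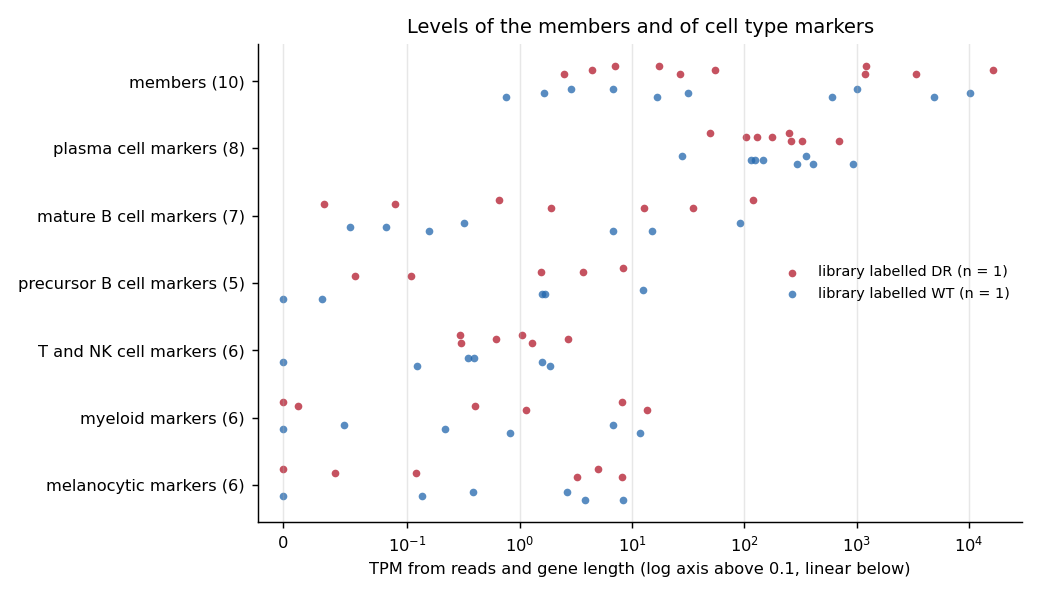
Each point is 1 gene, its level in TPM on the horizontal axis, in the DR-labelled library (red) and the WT-labelled library (blue). The axis is logarithmic above 0.1, and genes with 0 reads sit at 0. The 8 plasma cell markers lie between 27.8 and 920 TPM, among the levels of the 10 immunoglobulin-linked genes, while the 6 melanocytic markers stay at or below 8.27 TPM.

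Immunoglobulin is made by B cells and, in bulk, by the plasma cells they become. In a B cell the antibody sits in the membrane beside the signalling chains CD79A and CD79B, and binding of antigen leads SYK to act, through the adaptor BLNK, on BTK and the enzymes behind it. In a precursor B cell the place of the light chain is taken by a surrogate made of lambda-like and VpreB chains. A plasma cell gives up most of the receptor and secretes the antibody instead, with MZB1 helping in the endoplasmic reticulum and JCHAIN linking the units of IgM and IgA. JCHAIN, the lambda-like chains and the CD79 chains are not typical products of melanoma cells.

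IGLL5 carries most of the reads of the group, and its sequence bears on which transcripts those reads can come from. In GENCODE 29 on GRCh38 it has 3 exons on the plus strand of chromosome 22. The coding part of its last exon, 317 bases at chr22:22895375-22895691, is at the same place as the constant exon of IGLC1, a lambda light chain gene, and the sequences are 100% identical. Of its 317 bases, the corresponding exons of the further lambda constant genes compared, IGLC2, IGLC3 and IGLC7, share 302, 301 and 297. That of IGLL1, the lambda-like chain of the surrogate receptor, shares 282. The first 120 bases of each exon are printed 5′ to 3′, with capitals marking the bases that differ from IGLL5 in the same position. They lie on GRCh38 at chr22:22895375-22895494, plus strand (IGLL5 and IGLC1), chr22:22900976-22901095, plus strand (IGLC2), chr22:22906342-22906461, plus strand (IGLC3), chr22:22922594-22922713, plus strand (IGLC7) and chr22:23573466-23573585, minus strand (IGLL1).
IGLL5: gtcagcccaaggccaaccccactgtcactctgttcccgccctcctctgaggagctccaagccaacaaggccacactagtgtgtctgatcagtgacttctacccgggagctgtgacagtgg
IGLC1: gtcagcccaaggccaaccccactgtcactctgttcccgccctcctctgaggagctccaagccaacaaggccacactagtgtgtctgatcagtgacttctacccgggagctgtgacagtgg
IGLC2: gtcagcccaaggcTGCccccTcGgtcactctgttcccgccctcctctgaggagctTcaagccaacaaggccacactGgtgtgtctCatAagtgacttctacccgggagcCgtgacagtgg
IGLC3: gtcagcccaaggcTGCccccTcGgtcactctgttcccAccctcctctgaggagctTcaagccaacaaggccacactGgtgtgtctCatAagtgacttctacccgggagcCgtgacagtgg
IGLC7: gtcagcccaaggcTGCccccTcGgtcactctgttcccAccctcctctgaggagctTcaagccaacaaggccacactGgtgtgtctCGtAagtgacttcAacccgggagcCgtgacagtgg
IGLL1: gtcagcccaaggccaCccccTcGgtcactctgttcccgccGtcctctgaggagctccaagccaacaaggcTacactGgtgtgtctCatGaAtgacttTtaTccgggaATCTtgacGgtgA
In these 120 bases IGLC1 had 0 differences from IGLL5, IGLC2 had 10, IGLC3 had 11, IGLC7 had 13 and IGLL1 had 17. Of the 1001 stretches of 50 bases in the IGLL5 transcript, 402 also occur in IGLC1, 48 in IGLC2, 28 in IGLC3, 15 in IGLC7 and 18 in IGLL1. The table used here holds 0 rows for immunoglobulin variable, diversity, joining or constant genes, so reads of IGLL5 and of a lambda light chain that uses the shared exon cannot be told apart in it. The submitters' processing notes name hg19, an older build, and the table gives no coordinates for its counts.

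All 10 genes had the 10 reads over both libraries that were required for a fold change. A fold change here is the log2 ratio, DR over WT, of normalized CPM after adding 0.5 CPM, and a gene was called where it reached 1 in size, which is 2-fold on that scale. Of the 10 genes, 4 were called higher in the DR-labelled library (MZB1, CD79A, CD79B and BTK) and 0 were called lower. Among all 16210 genes tested, 7.48% were called higher and 4.16% lower. The 10 genes had a median log2 fold change of 0.76, with 9 above 0 and JCHAIN alone below it, beside a median of 0.01 over all genes tested. At a pseudocount of 5 CPM in place of 0.5, 0 of the 10 genes were called, so the 4 calls depend on that setting. Of all genes tested, 423 were then called higher and 333 lower. In bulk RNA, fewer cells of a type and less RNA per cell cannot be told apart.

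**Figure D2:**
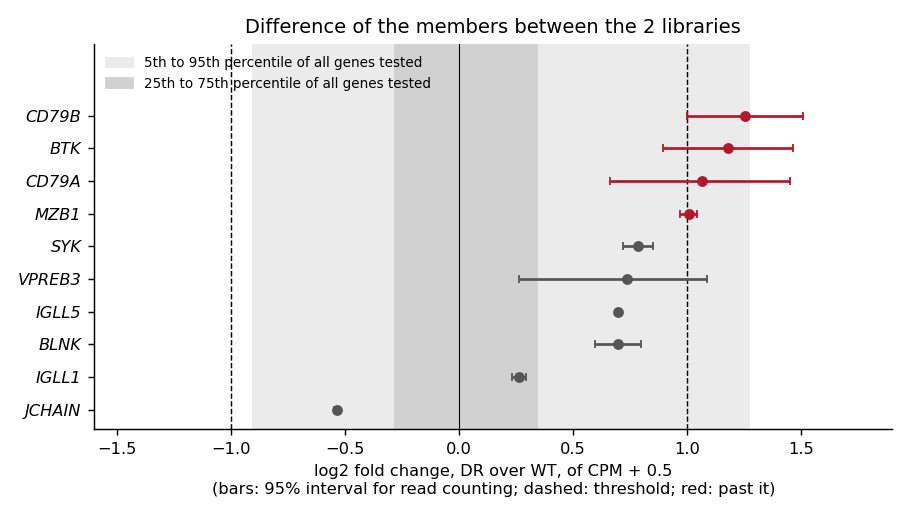
The horizontal axis gives the log2 fold change, DR over WT, of normalized CPM plus 0.5 for each of the 10 genes, with bars for the 95% read-counting interval. Red points are called genes, dashed lines mark the threshold of 1, and the grey bands hold the 5th to 95th percentile (-0.90 to 1.27) and the 25th to 75th percentile (-0.28 to 0.34) of all genes tested. All 10 genes fall within the wider band, with CD79B highest at 1.25 and JCHAIN lowest at -0.54.

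JCHAIN, the joining chain of polymeric IgM and IgA, was among the most abundant transcripts of both libraries. It had 111812 reads in the DR-labelled library and 101680 in the WT-labelled library, which are 2012 CPM (2001 to 2024) and 2917 CPM (2899 to 2935). Per length this put it at rank 24 of the 18267 genes with counts in the DR-labelled library, and at rank 8 in the WT-labelled library. The level in the DR-labelled library was thus the lower, with a log2 fold change of -0.54 (-0.55 to -0.52), which did not reach the threshold. The value lay at the 12.6th percentile of all genes tested.

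MZB1, an endoplasmic reticulum protein that assists antibody assembly and secretion in marginal zone B cells and plasma cells, went the other way. It had 25063 reads (451 CPM, 446 to 457) in the DR-labelled library and 7815 reads (224 CPM, 219 to 229) in the WT-labelled library. Its log2 fold change of 1.01 was just past the threshold, and its interval of 0.97 to 1.04 includes 1. Per length there were 0.354 MZB1 transcripts for each JCHAIN transcript in the DR-labelled library, and 0.121 in the WT-labelled library. These genes of the secreting cell were therefore both abundant in both libraries and differed in opposite directions.

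The lambda-like chains and the VpreB-related VPREB3 covered the whole range of abundance. IGLL5 had 432634 reads (7787 CPM, 7764 to 7810) in the DR-labelled library and 167201 reads (4796 CPM, 4773 to 4819) in the WT-labelled library. It ranked 2 per length in both libraries, at 16281 and 10153 TPM, and made up 71.5% and 57.0% of the reads of the 10 genes. The log2 fold change was 0.70 (0.69 to 0.71) and was not called. Beside JCHAIN, which was higher in the WT-labelled library, the level of IGLL5 per length was 4.84 times that of JCHAIN in the DR-labelled library and 2.06 times in the WT-labelled library.

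IGLL1, the lambda-like chain of the surrogate light chain, had 25174 reads (453 CPM, 448 to 459) in the DR-labelled library and 13144 reads (377 CPM, 371 to 384) in the WT-labelled library. Its log2 fold change was 0.26 (0.23 to 0.30), below the threshold. The counts of IGLL5 and IGLL1 are fractional, and how reads that fit both genes were split between them is uncertain. With the reads of both genes added together, a step chosen after seeing the data, the log2 fold change was 0.67 (0.66 to 0.68). The level of IGLL5 per length was 13.5 times that of IGLL1 in the DR-labelled library and 10.0 times in the WT-labelled library.

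VPREB3 and VPREB1 were scarce. VPREB3, a VpreB-related protein that binds unassembled chains in precursor B cells, had 37 reads (0.666 CPM, 0.469 to 0.918) in the DR-labelled library and 7 reads (0.201 CPM, 0.0807 to 0.414) in the WT-labelled library. Its log2 fold change of 0.73 (0.26 to 1.09) was not called and depended on the pseudocount, being 1.35 and called at 0.1 CPM and 0.12 at 5 CPM. The ratio of its CPM without any pseudocount was 3.32, with an interval from 1.46 to 8.82. VPREB1, the defining VpreB chain of the surrogate receptor, had 132 and 123 reads, and IGLL1 stood at 144 times its level per length in the DR-labelled library and 80.9 times in the WT-labelled library. As counted, IGLL1 thus stood far above its partner in the surrogate receptor in both libraries. The counts of IGLL1 are fractional, and its last coding exon shares 282 of 317 bases with that of IGLL5. How far reads of IGLL5 or of a lambda light chain enter this ratio was not tested.

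**Figure D3:**
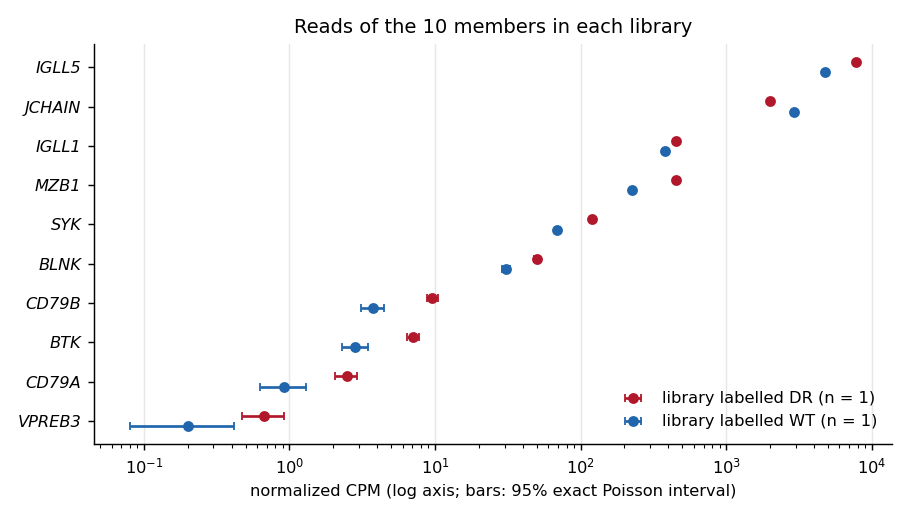
Normalized CPM of each gene on a logarithmic axis in the DR-labelled library (red) and the WT-labelled library (blue), with bars for the 95% exact Poisson interval of the reads, ordered from the highest to the lowest level per length in the DR-labelled library. From IGLL5 at 7787 CPM to VPREB3 at 0.666 CPM the red point lies to the right of the blue one for 9 genes, and for JCHAIN it lies to the left.

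The receptor's signalling chains were present at low levels and were called higher in the DR-labelled library. CD79A, the Ig-alpha chain, had 137 reads (2.47 CPM, 2.07 to 2.91) in the DR-labelled library and 32 reads (0.918 CPM, 0.628 to 1.30) in the WT-labelled library, a log2 fold change of 1.06 (0.66 to 1.45). CD79B, the Ig-beta chain, had 532 reads (9.58 CPM, 8.78 to 10.4) and 130 reads (3.73 CPM, 3.12 to 4.43), a log2 fold change of 1.25 with an interval that runs from the threshold itself to 1.51. The chains pair in the receptor, and per length CD79B stood at 3.96 times CD79A in the DR-labelled library and 4.14 times in the WT-labelled library. Their levels of 4.38 and 17.3 TPM in the DR-labelled library and 1.65 and 6.84 TPM in the WT-labelled library were near or below the median of all genes tested. At a pseudocount of 5 CPM the log2 fold changes were 0.34 for CD79A and 0.74 for CD79B, and neither was called.

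Mature B cell markers were also higher in sum in the DR-labelled library. Their summed level over 7 genes was 170 CPM in the DR-labelled library and 101 CPM in the WT-labelled library. Of the 6 with enough reads, 2 were called higher (7.48% of all genes tested) and 0 lower (4.16%). MS4A1, which encodes the B cell antigen CD20, had 157 reads in the DR-labelled library and 8 in the WT-labelled library. FCER2, the low-affinity IgE receptor, gave the largest part of the sum with 79.5 and 60.4 CPM. CIITA, the activator of class II antigen presentation genes, named after its values were seen, had 62.5 and 27.0 CPM and was the other called gene, and none of the 7 was at 0. The part of these markers in the differences of CD79A and CD79B was not tested.

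Among the cytoplasmic signalling proteins, the kinase genes SYK and BTK and the adaptor gene BLNK all had more CPM in the DR-labelled library, and BTK alone was called. SYK, the kinase that binds the phosphorylated CD79 chains, had 6654 reads (119.8 CPM, 117 to 123) in the DR-labelled library and 2418 reads (69.4 CPM, 66.6 to 72.2) in the WT-labelled library, a log2 fold change of 0.78 (0.72 to 0.85). BLNK, the adaptor that brings SYK and BTK to their targets, had 2771 reads (49.9 CPM, 48.0 to 51.8) and 1066 reads (30.6 CPM, 28.8 to 32.5), a log2 fold change of 0.70 (0.60 to 0.80). BTK, the kinase whose loss blocks B cell development in X-linked agammaglobulinaemia, had 392 reads (7.06 CPM, 6.37 to 7.79) and 99 reads (2.84 CPM, 2.31 to 3.46), a log2 fold change of 1.18 (0.90 to 1.46). The interval of BTK includes the threshold, and at a pseudocount of 5 CPM its log2 fold change was 0.62. Per length SYK stood at 2.03 times BLNK in the DR-labelled library and 1.92 times in the WT-labelled library, and at 7.75 and 11.1 times BTK.

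The order of the 10 genes by level per length was the same in both libraries. In the DR-labelled library it ran from IGLL5 (16281 TPM) through JCHAIN (3366), IGLL1 (1205), MZB1 (1192), SYK (54.3), BLNK (26.8), CD79B (17.3), BTK (7.01) and CD79A (4.38) to VPREB3 (2.47). The intervals of the neighbours IGLL1 and MZB1 overlapped there, so their order is not resolved. In the WT-labelled library the levels were 10153, 4939.6, 1015, 599.8, 31.8, 16.6, 6.84, 2.86, 1.65 and 0.754 TPM for the same genes, and the intervals of BTK and CD79A and those of CD79A and VPREB3 overlapped. The genes fell into an abundant set of secretion and lambda-like genes, at 599.8 TPM or more, and a set of receptor and signalling genes at 54.3 TPM or less. The abundant set of 4 genes took 98.3% and 98.7% of the reads of the group, and the whole group took 1.10% and 0.832% of each library.

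The promoters were compared because 4 genes were called in the same direction and JCHAIN lay on the other side of 0. RefSeq windows on GRCh38.p14 were found for 8 of the 10 genes, with none for IGLL5 or CD79B, and the 250 bases before the transcription start were searched on both strands. The patterns, chosen with these sequences known, were the octamer ATGCAAAT of the POU2 factors, the E-box CACGTG bound by MYC, USF and other factors, an EBF1-like palindrome CCCNNGGG, and an ETS-like GGAAGT. Among the uncalled genes with matches, VPREB3, which holds the only octamer, is printed, and SYK, BLNK and IGLL1 are not. The windows of MZB1, CD79A and BTK, the called genes that have one, of VPREB3 and of JCHAIN are printed. They run 5′ to 3′ in the direction of the gene, with the matches to any of the 4 patterns in capitals. They lie at chr5:139389914-139390163, minus strand (MZB1), chr19:41877029-41877278, plus strand (CD79A), chrX:101390797-101391046, minus strand (BTK, the most upstream of its starts), chr22:23754426-23754675, minus strand (VPREB3) and chr4:70666509-70666758, minus strand (JCHAIN).
MZB1: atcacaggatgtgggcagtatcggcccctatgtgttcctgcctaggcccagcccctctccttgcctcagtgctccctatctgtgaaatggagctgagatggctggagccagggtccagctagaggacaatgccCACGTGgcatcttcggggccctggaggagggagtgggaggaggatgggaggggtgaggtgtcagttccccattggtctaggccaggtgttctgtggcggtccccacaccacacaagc
CD79A: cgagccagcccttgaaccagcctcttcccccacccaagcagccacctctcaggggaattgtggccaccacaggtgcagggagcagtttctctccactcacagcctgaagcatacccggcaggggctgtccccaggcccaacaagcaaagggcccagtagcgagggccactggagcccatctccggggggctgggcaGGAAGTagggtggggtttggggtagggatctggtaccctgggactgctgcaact
BTK: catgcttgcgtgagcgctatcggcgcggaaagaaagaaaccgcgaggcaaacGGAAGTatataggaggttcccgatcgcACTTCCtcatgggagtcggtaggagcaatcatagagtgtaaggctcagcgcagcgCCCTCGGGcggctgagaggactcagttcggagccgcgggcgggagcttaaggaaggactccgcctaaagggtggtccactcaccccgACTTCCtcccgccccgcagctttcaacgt
VPREB3: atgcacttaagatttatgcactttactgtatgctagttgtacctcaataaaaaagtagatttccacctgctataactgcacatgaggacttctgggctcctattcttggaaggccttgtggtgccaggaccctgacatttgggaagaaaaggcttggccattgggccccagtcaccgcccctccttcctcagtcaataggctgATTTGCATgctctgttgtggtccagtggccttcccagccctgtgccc
JCHAIN: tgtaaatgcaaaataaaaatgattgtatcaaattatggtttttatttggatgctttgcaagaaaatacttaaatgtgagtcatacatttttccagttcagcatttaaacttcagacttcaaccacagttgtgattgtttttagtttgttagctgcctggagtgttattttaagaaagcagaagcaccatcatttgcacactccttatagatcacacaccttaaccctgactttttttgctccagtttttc
The octamer was found in VPREB3 alone, 47 to 40 bases before the start, and in 1.63% of all 35116 windows of this length. The E-box was found in MZB1 alone, 117 to 112 bases before the start, and in 6.34% of all windows. The EBF1-like pattern was found in BTK and IGLL1 (17.1% of all windows), and the ETS-like pattern in BLNK, BTK, CD79A and SYK (19.5% of all windows). A gene was counted if any of its windows matched, whereas the percentages are shares of windows. SYK and BTK had several windows, and not all of them matched, so the genes cannot be set directly against these percentages. None of the 4 patterns was shared by all called genes with a window, and the JCHAIN window held none. A match describes the letters of the window only.

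Around these genes, 6 lists of partners were described, of which 101 genes had enough reads. Of these, 12 were called higher and 3 lower, beside 7.48% and 4.16% of all genes tested, with a median log2 fold change of 0.16. The coreceptor and signalling lists held most of the calls, and 0 genes of the rearrangement and folding lists were called in either direction.

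Coreceptors and inhibitory receptors set the strength of the receptor's signal. Of 16 tested, 5 were called higher (7.48% of all genes tested) and 0 lower (4.16%), with a median log2 fold change of 0.35. IFITM1, an interferon-induced protein of the coreceptor complex, had 278 and 35 reads, a log2 fold change of 1.87. The inhibitory receptors LILRB1, with 296 and 49 reads, and FCGR2B, with 124 and 26 reads, were higher by 1.61 and 1.13 on the log2 scale. PECAM1, an adhesion molecule with inhibitory motifs, was higher by 1.02, and FCRL5, an inhibitory Fc receptor-like protein named after its values were seen, by 1.12. The most abundant genes of the list were CD81, a tetraspanin, with a log2 fold change of -0.53, and PTPN6, an inhibitory phosphatase, with 0.45, and neither was called. At a pseudocount of 5 CPM, 0 genes of this list were called higher, beside 423 of all 16210 genes tested.

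The signalling partners of SYK, BTK and BLNK were spread to both sides. Of 36 tested, 5 were called higher (7.48% of all genes tested) and 3 lower (4.16%), and the median was 0.01, equal to that of all genes tested. RASGRP3, an activator of Ras that responds to diacylglycerol, had 3739 and 443 reads and a log2 fold change of 2.36. The exchange factors VAV3 and VAV1 were higher by 2.18 and 1.12 and the adaptor DAPP1 by 1.35, with LAT2, an adaptor named after its values were seen, at 1.10. On the other side, the adaptor DOK3, an inhibitor of receptor signalling, had 372 reads in the DR-labelled library and 1809 in the WT-labelled library, a log2 fold change of -2.86. PRKCB, the protein kinase C of B cells, and LYN, the Src-family kinase that phosphorylates the CD79 chains, had log2 fold changes of -1.36 and -1.12. The most abundant partners, CSK, a kinase that restrains the Src family, at 0.23 and GRB2, a general adaptor, at 0.20, were not called. At a pseudocount of 5 CPM, 3 partners were called higher and 2 lower, beside 423 and 333 of all 16210 genes tested.

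The folding and secretion machinery of the endoplasmic reticulum was abundant in both libraries, and none of its genes reached the threshold. Over all genes tested, 7.48% were called higher and 4.16% lower. The 21 genes of this list had median levels of 352 and 282 TPM. Their log2 fold changes ran from -0.30 to 0.55 with a median of 0.19. TXNDC5, a disulphide isomerase, had 3389 and 2318 CPM, and PPIB, a prolyl isomerase, had 699.7 and 479 CPM, each with a log2 fold change of 0.55. The fold change of MZB1 was above that of every gene of this list, and that of JCHAIN was below that of every one.

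The rearrangement list holds the enzymes that cut and join receptor genes, together with VPREB1. Of the 8 tested, 0 were called higher (7.48% of all genes tested) and 0 lower (4.16%). Below 0 lay 6 of them, and the median log2 fold change was -0.23. PRKDC, the catalytic subunit of the DNA-dependent protein kinase, had 688 and 1033 CPM (log2 fold change -0.59), and DCLRE1C, the Artemis nuclease, 44.2 and 53.9 CPM (-0.28), both with roles in DNA repair in all cells. DNTT, the polymerase specific to precursor lymphocytes, had 3 and 1 reads. Precursor B cell markers as a whole summed to 15.6 and 12.1 CPM over 5 genes, with CD34 at 7 and 0 reads. MME, a surface peptidase also found outside B cells and named after its values were seen, was the called gene of that list, with 471 and 136 reads (8.48 and 3.90 CPM) and a log2 fold change of 1.03. Without MME, a step chosen after seeing the data, the sums were 7.13 and 8.23 CPM, now lower in the DR-labelled library. T and NK cell markers summed to 4.14 and 2.90 CPM, with GNLY at 13 and 0 reads, and myeloid markers to 21.5 and 17.7 CPM, with MPO at 1 and 0 reads and FCN1 at 0 and 1.

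**Figure D4:**
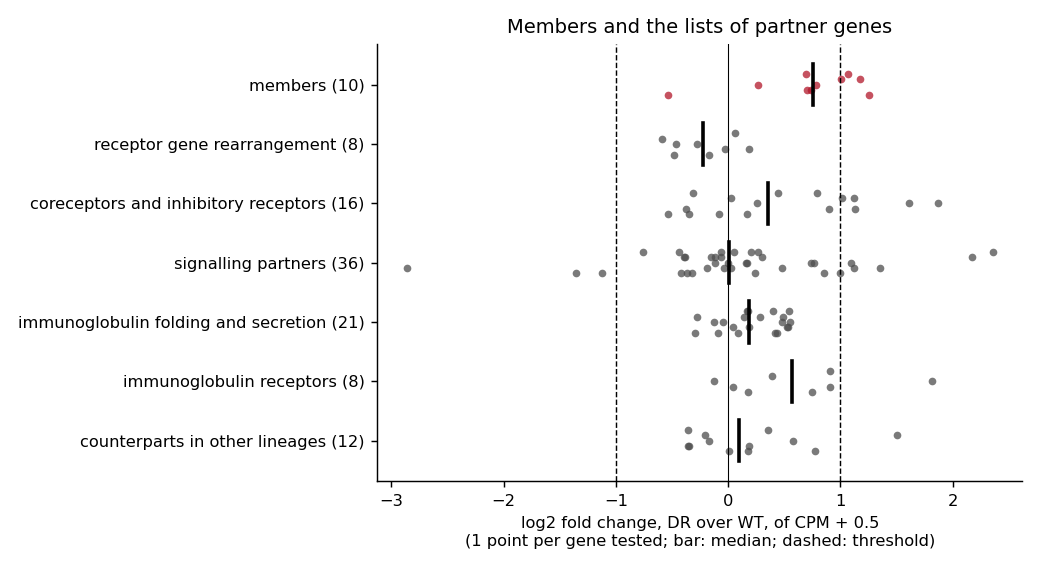
Each point is a gene with at least 10 reads, its log2 fold change, DR over WT, of normalized CPM plus 0.5 on the horizontal axis, with the 10 genes of the group in red and 6 lists of partners in grey. Black bars are medians and dashed lines mark the threshold of 1. The medians run from -0.23 for the rearrangement list to 0.76 for the 10 genes, and the signalling partners spread from -2.86 to 2.36.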

How the data were processed

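Total RNA from 1 library labelled DR and 1 labelled WT was analysed from a single table deposited by the authors. The estimated counts per gene were made by the authors and deposited unscaled, with fractional values for 9108 of 18267 genes with counts. The table also gives gene lengths. Per the submitters' processing notes, Bowtie 0.12.2 and hg19 were used. Their roles, the counting tool and the annotation are not given in the sources used here. Columns with the authors' own log2 ratio, p-value, q-value and direction hold their comparison and were not used. There were 0 columns of other samples.

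Counts were rounded and scaled by TMM in edgeR 4.0.16 (R 4.3.3), with DESeq2 1.42.0 size factors as an alternative. A minimum of 10 reads, summed over the libraries, removed 2057 genes, and 663 had no counts. Log2 fold changes used CPM plus 0.5. With 1 library per group there were no residual degrees of freedom for a quasi-likelihood fit, so genes were called at a log2 fold change of at least 1 and no p-value was computed. Level intervals are exact Poisson and fold intervals Clopper-Pearson, at 95%, and 3 reads (0.054 and 0.0861 CPM) served as the floor for a count of 0. Python 3.11.15, NumPy 2.4.6, pandas 2.3.3, SciPy 1.17.1 and Matplotlib 3.10.9 were used, and the scripts were tested on simulated data.

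The members and lists were chosen with earlier results of these data known. Named in each list were those called at a mean level of 1 CPM or more, at most the 4 largest in each direction, and the 2 with the highest level per length. BMX, TYR, RAG2 and FCGR1A were in the lists, but no counts were found for them. Alternatives were other scalings, pseudocounts of 0.1 and 5 CPM, no read minimum or 50 reads, unrounded counts, a threshold of 2, and leaving out IGLL5. Sequences come from GENCODE 29 (GRCh38) and RefSeq (GRCh38.p14), not from the build of the counts.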

Additional observations from a re-analysis of the deposited data

How the results depend on the processing

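No paired analysis was possible because each group had 1 library, and for the same reason no replicate could be left out and the spread between cultures is unknown. A pseudocount of 5 CPM left 423 genes called higher and 333 lower, with 0 of the 10 immunoglobulin-linked genes and 5 genes of the partner lists called higher, and 2 genes of those lists called lower. A threshold of 2 on the log2 scale left 339 genes higher and 189 lower, with 0 of the 10 genes, 2 partner genes higher and 1 lower. DESeq2 size factors, library totals, no read minimum and a minimum of 50 reads kept 4 of the 10 genes higher and 0 lower. A pseudocount of 0.1 CPM gave 5 of the 10 genes higher, beside 1726 of all 16210 genes tested. The median of the 10 genes ranged from 0.62 (pseudocount 5 CPM) to 0.90 (pseudocount 0.1 CPM) over these settings, was 0.78 without IGLL5, and was 1.04 without the 4 genes with fractional counts, an alternative chosen after seeing the data. MZB1 ranged from 0.99 to 1.04 and JCHAIN from -0.54 to -0.50 over the scalings and pseudocounts. No direction reversed. Depth limits VPREB3 and CD79A most, at 7 and 32 reads in the WT-labelled library.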

Other observations

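Receptors that bind immunoglobulin from outside or inside the cell were measured beside the genes that make it. Of 8 tested, 1 was called higher in the DR-labelled library (7.48% of all genes tested) and 0 lower (4.16%), and the median log2 fold change was 0.57. FCMR, the receptor for the Fc part of IgM, had 4536 reads in the DR-labelled library and 794 in the WT-labelled library, a log2 fold change of 1.82 (1.71 to 1.93). FCER2, the other abundant receptor of the list, had 4415 and 2105 reads and a log2 fold change of 0.39, which was not called. At a pseudocount of 0.1 CPM, 3 receptors were called higher, beside 1726 of all 16210 genes tested.

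The chains and kinases that do in T cells, NK cells and myeloid cells what CD79A, CD79B, SYK, BTK and BLNK do in B cells had 1 gene of 12 tested called higher and 0 lower, a share close to the 7.48% of all genes tested that were called higher, with a median of 0.09. LCP2, the adaptor that fills the place of BLNK in T cells, had 2353 and 508 reads and a log2 fold change of 1.51, and the level of BLNK per length was 0.700 of that of LCP2 in the DR-labelled library and 1.25 times it in the WT-labelled library. LAT, the T cell linker that gathers LCP2 and its partners, had 904 and 639 reads and a log2 fold change of -0.17. SYK stood at 9.43 and 4.20 times ZAP70, its relative in T cells, per length, and BTK at 0.448 and 0.206 of TEC, a kinase of the same family. At a pseudocount of 0.1 CPM, 2 genes of this list were called higher, beside 1726 of all 16210 genes tested.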
